A study of Caenorhabditis elegans with 4 samples.

Results

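The genes of the body wall muscle sarcomere were followed in whole Caenorhabditis elegans larvae at the first larval stage (L1), in dve-1(uf171) mutants and in wild type. The set held 35 genes named for their part in the contractile filaments, in the attachment of those filaments to the cell surface, in calcium handling or in muscle gene regulation, of 41614 genes to which the deposited values could be assigned. RefSeq accessions of 33 of the 35 were matched, and unc-15 and tnt-3 were not analysed here. There were 2 libraries from dve-1 mutants and 2 from wild type (WT). Animals of both genotypes were grown at 25 degrees Celsius on the E. coli strain OP50, synchronized, and collected as about 1200 larvae a sample, from which total RNA was sequenced. Only the genotype was given by the labels as differing between the groups, and uf171 was the only allele they named. Whether the groups also differed in batch is not known from them. The labels do not say whether replicates were separate cultures, and the p-values below rest on the spread between libraries, part or all of which may be technical.

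Body wall muscle of the worm is obliquely striated. Thick filaments of myosin slide along thin filaments of actin, the troponin and tropomyosin on the thin filament let calcium switch contraction on, and dense bodies and M-lines fasten both filaments through integrin to the basement membrane and the epidermis beyond it. Most of these genes were found through mutants that are paralysed, twitch or arrest as embryos, which is where the names unc (uncoordinated) and pat (paralysed and arrested at a folded embryo stage) come from. The mutated gene encodes a homeodomain transcription factor, best known from the stress response of mitochondria.

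The values are FPKM, sequenced fragments scaled to the length of the transcript and to the mapped fragments of the library, summed over the RefSeq transcript entries of a gene. For 25 of the 33 genes every RefSeq entry of the annotation was listed. For the other 8, among them lev-11, ttn-1, unc-22 and ketn-1, only some were, so their sums may leave out isoforms. The 33 genes together held 0.662% and 0.637% of summed FPKM in the mutant libraries and 0.592% and 0.628% in the WT libraries. Their own sums overlapped, at 14869 and 13072 FPKM in the mutant and 14180 and 14783 FPKM in WT. The total they were divided by was lower in the mutant, at 2247009 and 2051173 FPKM against 2394188 and 2353301 FPKM in WT. The body wall muscle markers unc-54, myo-3, hlh-1 and unc-120 were all above 0 in every library, with a summed level of 488 and 477.7 FPKM in the mutant and 423 and 557 FPKM in WT. Because whole animals were sequenced, fewer muscle cells and less RNA per muscle cell cannot be told apart in any value below. The transcript of dve-1 itself was listed at 23.4 and 25.5 FPKM in the mutant and at 15.1 and 19.5 FPKM in WT, so the RNA level does not check the genotype.

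No sarcomere gene passed the test between genotypes, and most differed by less than 2-fold within their error. Of the 33, 20 had a higher and 13 a lower mean log2 value in the mutant, and 31 had a log2 fold change between -0.5 and 0.5. The median log2 fold change, mutant over WT on the log2(FPKM + 1) scale, was 0.07 over the 33 genes and 0.095 over all 15202 genes tested. Under median-ratio scaling it was -0.054 over the muscle genes and -0.013 over all genes, and 11 of the 33 were then higher and 22 lower in the mutant, so small differences below have no fixed direction. The quartiles were -0.089 and 0.138 over the muscle genes and -0.15 and 0.358 over all tested genes. None of the 33 passed limma with Benjamini-Hochberg adjustment over all tested genes (0 of 33, threshold 0.05), against 1.66% of all tested genes (0.303% higher and 1.36% lower in the mutant). At an unadjusted limma p under 0.05 there were 2, mlc-1 and dim-1, both lower in the mutant, against 11.9% of all tested genes. A p that misses the threshold does not show equal levels, so the intervals matter: the 95% limma interval of the log2 fold change lay within 2-fold either way for 29 of the 33 genes, against 51.7% of all tested genes. The 4 exceptions were mlc-1, ttn-1, dys-1 and hlh-1. The muscle genes were also more abundant than most, with a median of 109.9 FPKM against 13.3 FPKM over all tested genes, and their log2 fold changes had a median SE of 0.142 against 0.222.

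**Figure D1:**
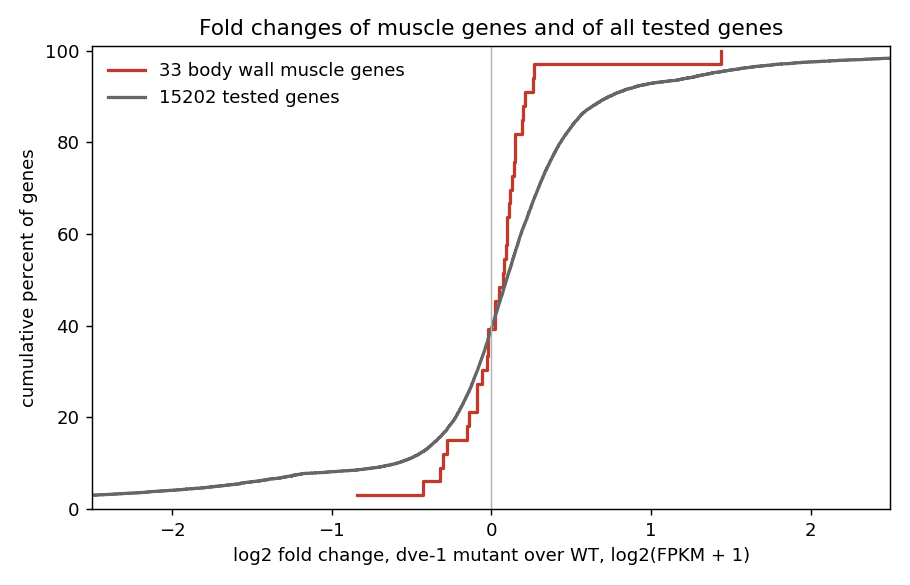
Cumulative percent of genes (vertical axis) at or below each log2 fold change, dve-1 mutant over WT on the log2(FPKM + 1) scale (horizontal axis), for the 33 body wall muscle genes (red) and all 15202 tested genes (grey), with the axis ending at 2.5 either way. The red line climbs in a narrower range around 0 than the grey line, with mlc-1 as its lowest step and dys-1 as its highest.

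In 9 of the 33 genes both mutant values lay above both WT values, against 28.1% of all tested genes, and in 6 both lay below, against 15.9%. Both shares are near that background. Replicates of a genotype also differed from each other: the second WT library exceeded the first in 27 of the 33 genes, and the median difference over all 33 was 0.147 on the log2 scale. In the mutant, the first library exceeded the second in 21. The median size of the difference between the WT replicates was 0.161 on the log2 scale and that between the mutant replicates 0.101, against a median size of the log2 fold change between genotypes of 0.127.

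**Figure D2:**
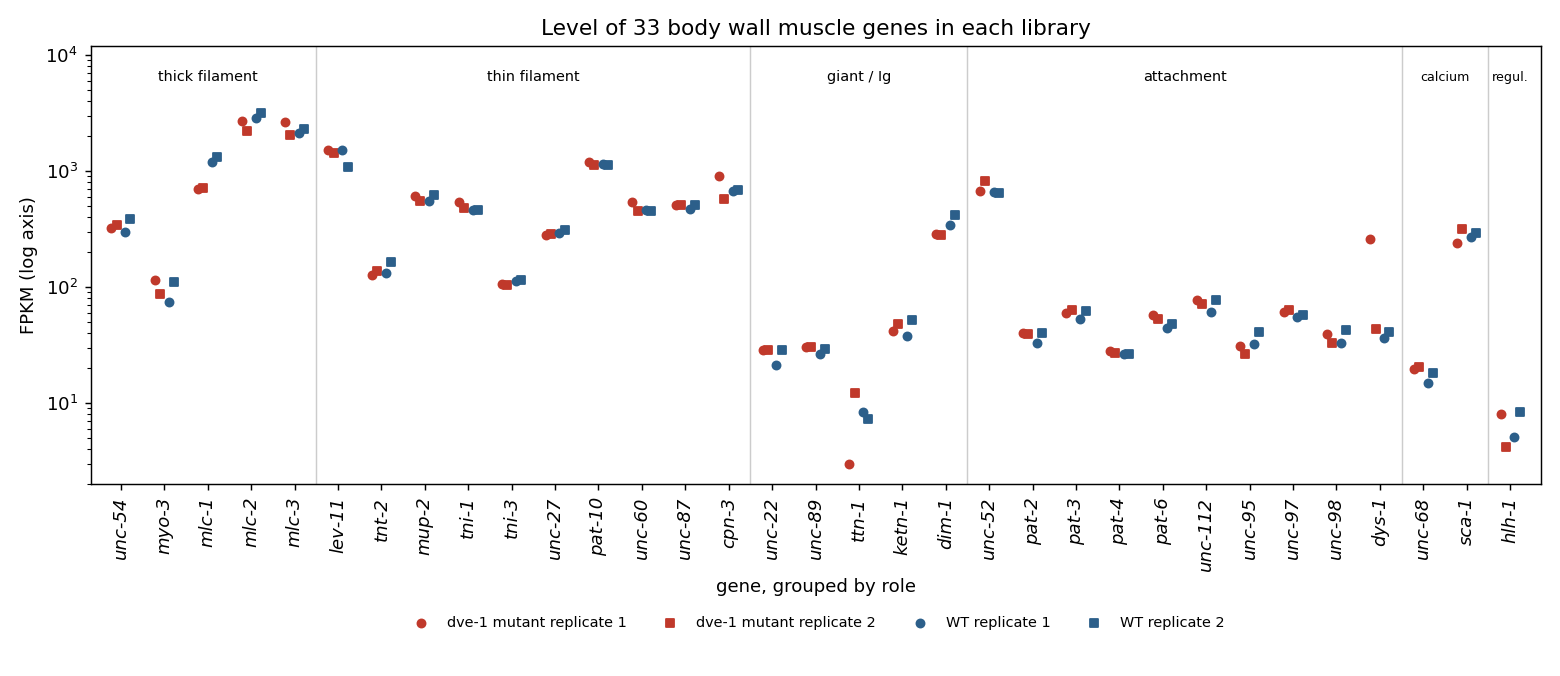
Level of each of the 33 genes in FPKM (vertical log axis) in the dve-1 mutant libraries (red, left of each pair) and the WT libraries (blue, right), with circles for replicate 1, squares for replicate 2 and grey lines between roles. Levels span 3.01 FPKM for ttn-1 in the first mutant library to 3166 FPKM for mlc-2 in the second WT library, and the red and blue points of mlc-1 stand clearly apart.

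Thick filament genes were led by the myosin light chains. The major body wall myosin heavy chain B, encoded by unc-54 (chromosome I, 14855901 to 14863482, WBcel235, the same assembly as ce11), stood at 324 and 344 FPKM in the mutant and at 297 and 387.5 FPKM in WT. The mutant values lay between the WT values. The minor heavy chain A, encoded by myo-3 (chromosome V, 12226816 to 12234343), which sits at the centre of the thick filament, stood at 114.5 and 87.4 FPKM in the mutant and at 73.7 and 110.2 FPKM in WT, where the groups overlapped as well. The level of unc-54 was 2.83 and 3.94 times that of myo-3 in the mutant libraries and 4.03 and 3.52 times in the WT libraries, with no order between genotypes. The intervals of the log2 fold change ran from -0.53 to 0.48 for unc-54 and from -0.68 to 0.97 for myo-3.

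The gene mlc-1 had the smallest p-value of the 33, with lower values in the mutant. With its neighbour mlc-2, it encodes the regulatory light chain of myosin, and the pair is known for nearly identical products. The level of mlc-1 (chromosome X, 17459210 to 17460778, plus strand) was 698 and 709 FPKM in the mutant and 1198 and 1327 FPKM in WT. Both mutant libraries were low and the groups did not overlap. The mean was 704 ± 7.5 FPKM in the mutant and 1262 ± 91.0 FPKM in WT (SD, n = 2 each), with a log2 fold change of -0.84 (SE 0.10, 95% interval -1.13 to -0.55). It missed the threshold over all genes (limma adjusted p = 0.0787). The limma adjusted p lay between 0.0653 and 0.381 over the alternatives, and the log2 fold change between -0.96 and -0.77.

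The level of mlc-2 (chromosome X, 17455792 to 17456586, minus strand), the most abundant of the 33 genes, was 2724 and 2206 FPKM in the mutant and 2878 and 3166 FPKM in WT. Both mutant values were below both WT values, but the log2 fold change of -0.30 (interval -0.74 to 0.14) did not pass by limma (adjusted p = 0.547). The share of mlc-1 in the summed FPKM of the pair was 20.4% and 24.3% in the mutant libraries and 29.4% and 29.5% in the WT libraries. The groups did not overlap, and with 2 libraries against 2 an exact permutation test (two-sided) cannot give a p below 0.333. Together the pair stood at 3422 and 2916 FPKM in the mutant and at 4076 and 4493 FPKM in WT. Reads that fit both genes may have been shared between them by the authors' quantification, so the split is uncertain, and exons of each also overlap a neighbouring gene (slc-17.1 for mlc-1, C36E6.2 for mlc-2). No value could be assigned to C36E6.2. The part of shared reads and of these overlaps in the difference was not tested.

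The essential light chain, encoded by mlc-3 (chromosome III, 5565025 to 5567007), did not follow the pair. It stood at 2656 and 2059 FPKM in the mutant and at 2126 and 2315 FPKM in WT, with overlapping groups and a log2 fold change of 0.08 (SE 0.17). The sum of mlc-1 and mlc-2 was 1.29 and 1.42 times the level of mlc-3 in the mutant libraries and 1.92 and 1.94 times in the WT libraries.

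**Figure D3:**
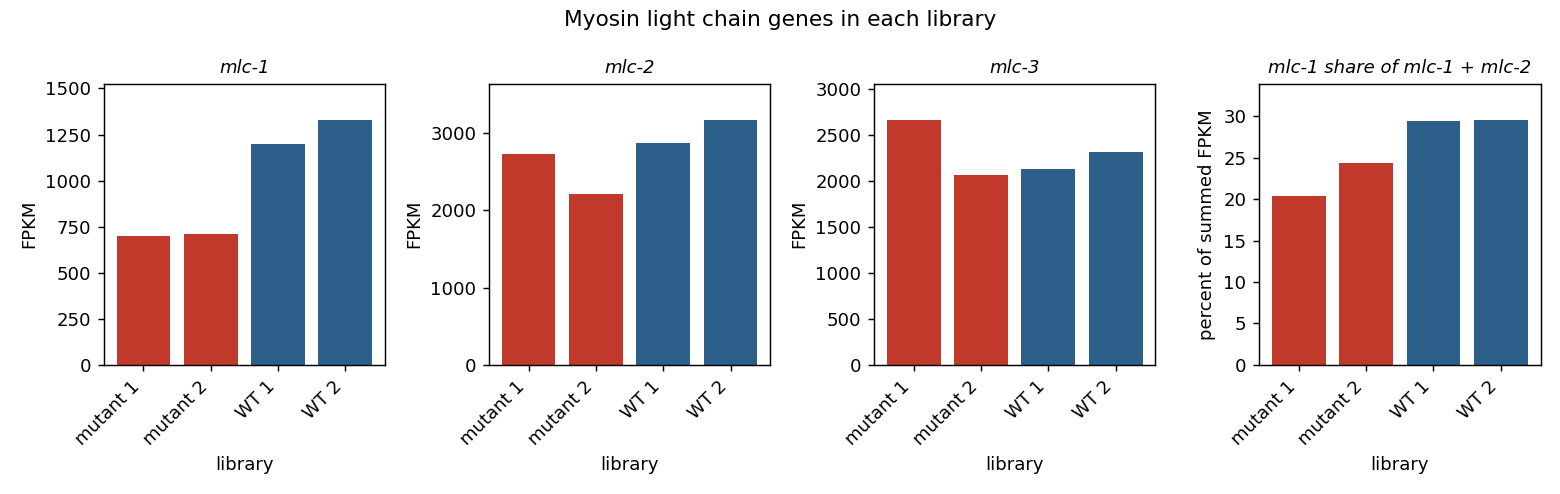
Levels of mlc-1, mlc-2 and mlc-3 in FPKM and the share of mlc-1 in the summed FPKM of mlc-1 and mlc-2 (percent), as 1 bar per library from 0, dve-1 mutant in red and WT in blue. The mlc-1 bars are 698 and 709 FPKM in the mutant and 1198 and 1327 FPKM in WT, while the mlc-3 bars of the 2 genotypes overlap.

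Thin filament genes differed little. Troponin C, the calcium sensor of the thin filament, is encoded by pat-10 (chromosome I, 5018783 to 5020086), which stood at 1192 and 1132 FPKM in the mutant and at 1155 and 1135 FPKM in WT. The WT values lay within the range of the mutant values, and the log2 fold change was 0.02 (SE 0.09, interval -0.23 to 0.27). All 10 thin filament genes analysed had a log2 fold change between -0.15 and 0.21 (median 0.05), and for all 10 the interval lay within 2-fold.

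Troponin I, the inhibitory subunit, came from 3 of the genes, and their sum was level across libraries at 934 and 875 FPKM in the mutant and 872 and 885 FPKM in WT. The largest part came from tni-1, with 545 and 482 FPKM in the mutant and 466 and 459.6 FPKM in WT, so both mutant values were higher. Both mutant values were lower for unc-27 (281 and 287.5 FPKM in the mutant, 294.5 and 310.5 FPKM in WT) and for tni-3 (107.4 and 105 FPKM in the mutant, 111.9 and 115 FPKM in WT). The share of tni-1 in the sum was 58.4% and 55.1% in the mutant libraries and 53.4% and 51.9% in the WT libraries. None of the 3 passed (limma adjusted p = 0.627 for tni-1, 0.673 for unc-27 and 0.664 for tni-3), with log2 fold changes of 0.15, -0.09 and -0.09. The level of pat-10 was 1.28 and 1.29 times the troponin I sum in the mutant libraries and 1.32 and 1.28 times in the WT libraries.

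Troponin T, which ties the troponin complex to tropomyosin, was led by mup-2 with 605 and 548 FPKM in the mutant and 551.5 and 619.9 FPKM in WT. Its relative tnt-2 stood at 127 and 137 FPKM in the mutant and at 131 and 163.5 FPKM in WT. In both genes the groups overlapped. Tropomyosin, encoded by lev-11 (chromosome I, 14621169 to 14631094), stood at 1535 and 1442 FPKM in the mutant and at 1523 and 1088 FPKM in WT, and only the second WT library was low.

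The calponin-related genes and the actin regulator of the list had log2 fold changes between 0.07 and 0.13. The calponin-like unc-87, which bundles actin filaments, stood at 515 and 510.4 FPKM in the mutant and at 471 and 507 FPKM in WT. Both mutant values were higher, with a log2 fold change of 0.07 (SE 0.09) that was -0.05 under median-ratio scaling. Its relative cpn-3 stood at 913 and 579 FPKM in the mutant and at 673 and 689 FPKM in WT, where the first mutant library was high and the second low. The actin depolymerizing factor (cofilin) gene unc-60 (chromosome V, 1475086 to 1479576) stood at 543.5 and 457 FPKM in the mutant and at 464 and 449 FPKM in WT. The gene F53E2.2 begins at the same base and shares exon sequence with unc-60. Its level was 195.5 and 294 FPKM in the mutant and 302 and 277 FPKM in WT. The first mutant library thus had the highest unc-60 and the lowest F53E2.2 value, while the sum of both genes stayed at 739 and 751 FPKM in the mutant and 766 and 726 FPKM in WT.

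Among the giant and immunoglobulin-domain proteins, dim-1 had both mutant values below both WT values, unc-89 had both above, and the groups of the other 3 genes overlapped. The gene dim-1 (chromosome X, 8050466 to 8058220), which encodes an immunoglobulin-domain protein near dense bodies, stood at 287 and 279 FPKM in the mutant and at 345 and 421 FPKM in WT. The groups did not overlap. The log2 fold change was -0.43 (SE 0.14, interval -0.84 to -0.02), which did not pass over all genes (limma adjusted p = 0.409), and it ran from -0.57 to -0.29 over the alternatives.

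The twitchin gene unc-22, whose giant kinase product lies along the thick filament, stood at 28.7 and 28.5 FPKM in the mutant and at 21.4 and 28.5 FPKM in WT. The obscurin-like gene unc-89, an M-line component, stood at 30.4 and 30.5 FPKM in the mutant and at 26.3 and 29.5 FPKM in WT, so both mutant values were higher (log2 fold change 0.12, SE 0.12). The kettin gene ketn-1, whose product lies along thin filaments, stood at 42.2 and 47.7 FPKM in the mutant and at 37.6 and 52.03 FPKM in WT, with the mutant values inside the WT range. The titin-related gene ttn-1 stood at 3.01 and 12.2 FPKM in the mutant and at 8.33 and 7.35 FPKM in WT. Its mutant libraries lay on either side of both WT libraries, and its interval, -2.27 to 1.72, allows a change of over 2-fold in either direction.

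**Figure D4:**
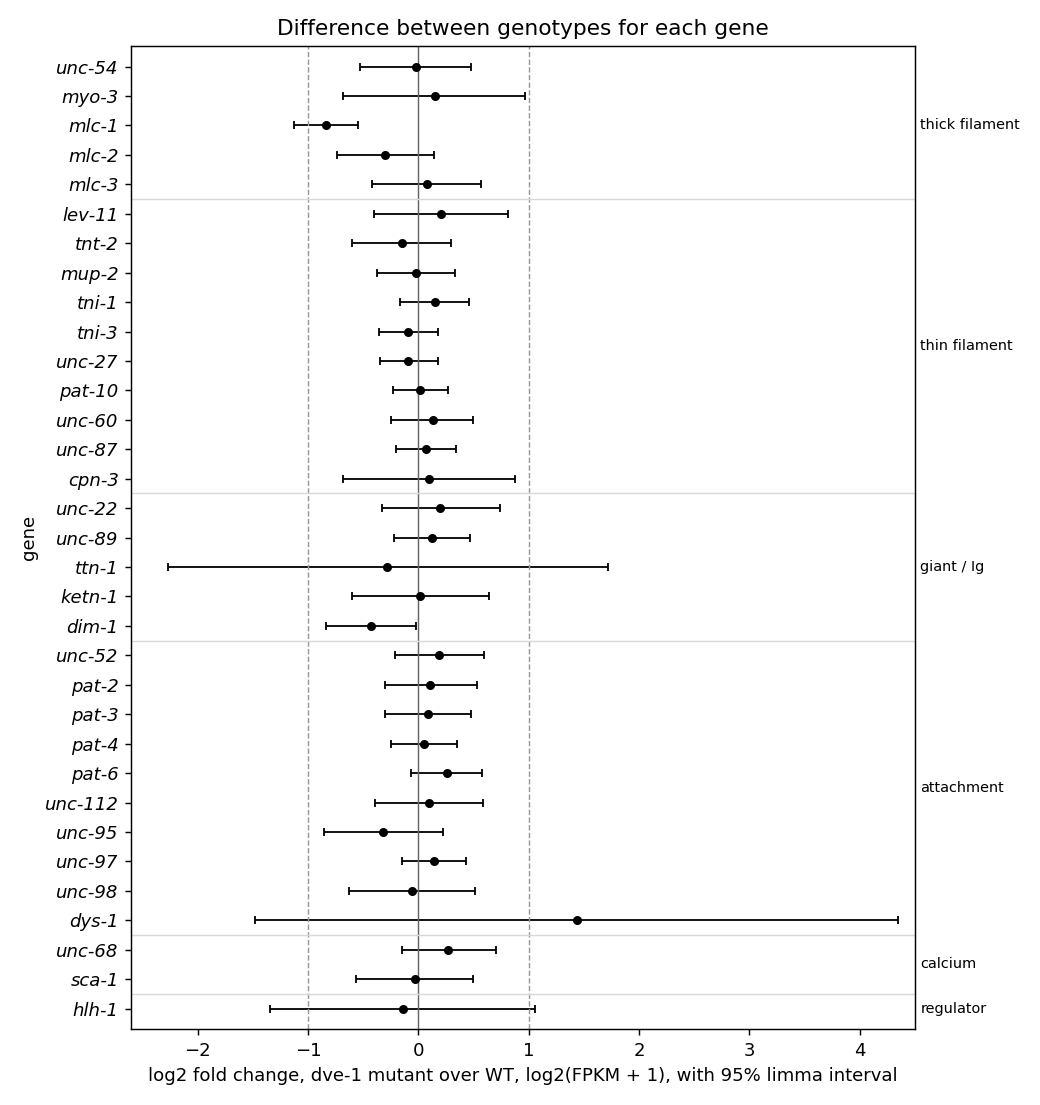
Log2 fold change, dve-1 mutant over WT on the log2(FPKM + 1) scale (horizontal axis), of each of the 33 genes (rows, grouped by role), with bars for the 95% limma interval and dashed lines at a 2-fold difference either way. Most bars cross 0 and stay between the dashed lines, and those of mlc-1 and dim-1 lie below 0. The mlc-1 bar reaches past the lower dashed line, and those of ttn-1, dys-1 and hlh-1 reach past both.

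Attachment genes had log2 fold changes between -0.32 and 0.26, except for dys-1 at 1.44. Of the 10, 5 had both mutant values above both WT values, against 28.1% of all tested genes, and 1 had both below. Among those 5 were dys-1 and unc-52. Without an entry listed above 0 in 1 library only, dys-1 overlapped between genotypes, and unc-52 overlapped on its coding entries alone. The median log2 fold change of the 10 genes was 0.11, close to the 0.095 of all tested genes, and -0.014 under median-ratio scaling. The integrin subunit genes pat-2 (alpha) and pat-3 (beta), whose products form the receptor at dense bodies and M-lines, overlapped between genotypes. The level of pat-2 was 40.2 and 39.1 FPKM in the mutant and 33.2 and 40.2 FPKM in WT, and that of pat-3 was 59.7 and 63.3 FPKM in the mutant and 53.3 and 62.8 FPKM in WT. The pat-3 level was 1.49 and 1.62 times that of pat-2 in the mutant libraries and 1.605 and 1.56 times in the WT libraries.

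The complex that sits on the integrin tail is built from integrin-linked kinase (pat-4), a PINCH protein (unc-97) and parvin (pat-6), with the kindlin unc-112 beside it. All 3 complex genes had both mutant values above both WT values, as did 28.1% of all tested genes. The level of pat-6 (chromosome IV, 261886 to 264232) was 57.0 and 53.5 FPKM in the mutant and 44.1 and 48.0 FPKM in WT, with a log2 fold change of 0.26 (SE 0.11, interval -0.07 to 0.58; limma adjusted p = 0.497). The level of unc-97 was 61.3 and 63.7 FPKM in the mutant and 55.5 and 57.9 FPKM in WT (log2 fold change 0.14), and that of pat-4 was 28.3 and 27.1 FPKM in the mutant and 26.6 and 26.7 FPKM in WT (log2 fold change 0.05). Under median-ratio scaling, the value of pat-4 was -0.07. The kindlin gene unc-112 overlapped between genotypes, at 76.7 and 71.5 FPKM in the mutant and 61.2 and 78.02 FPKM in WT.

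The LIM-domain gene unc-95 and the zinc finger gene unc-98 both encode proteins found at attachment sites and in nuclei. The level of unc-95 was 31.1 and 26.7 FPKM in the mutant and 32.1 and 40.7 FPKM in WT, so both mutant values were lower (log2 fold change -0.32, SE 0.18, limma adjusted p = 0.588). That of unc-98 was 39.1 and 32.7 FPKM in the mutant and 32.9 and 42.4 FPKM in WT, with overlapping groups. The log2 fold change of unc-98 was -0.06 (SE 0.19).

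The perlecan gene unc-52 (chromosome II, 14647321 to 14684456), which encodes the basement membrane proteoglycan to which the muscle is anchored, stood at 677 and 827 FPKM in the mutant and at 663 and 645 FPKM in WT. Both mutant values were higher, and the log2 fold change was 0.19 with an SE of 0.14 (limma adjusted p = 0.627). Most of this level belonged to a noncoding transcript entry, with 599 and 776 FPKM in the mutant and 613 and 593 FPKM in WT, or 88.5% and 93.9% of the gene in the mutant libraries and 92.4% and 91.9% in the WT libraries. The Ensembl annotation has 1 noncoding transcript for this gene, a single exon of 692 nt (chromosome II, 14652118 to 14652809) overlapping the 3′ end of several coding isoforms, and whether the deposited entry is that transcript was not determined. The coding entries of unc-52 summed to 77.8 and 50.3 FPKM in the mutant and to 50.1 and 52.1 FPKM in WT, where the first mutant library alone was high. The dystrophin gene dys-1 (chromosome I, 11526918 to 11557851), which links the cytoskeleton to the membrane, stood at 259.7 and 43.2 FPKM in the mutant and at 36.2 and 41.2 FPKM in WT, and its interval was the widest of the 33 genes, -1.48 to 4.35.

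The calcium genes and the muscle regulator did not pass either. The ryanodine receptor gene unc-68, which encodes the calcium release channel of the sarcoplasmic reticulum, stood at 19.7 and 20.3 FPKM in the mutant and at 14.9 and 18.0 FPKM in WT. Both mutant values were higher, and the log2 fold change was 0.27 with an SE of 0.14 (limma adjusted p = 0.562). The calcium pump gene sca-1, which encodes the SERCA pump that refills that store, stood at 239.6 and 316 FPKM in the mutant and at 270.3 and 293 FPKM in WT, with the WT values inside the mutant range. The MyoD-related factor gene hlh-1 was the least abundant of the 33, at 8.06 and 4.19 FPKM in the mutant and 5.12 and 8.32 FPKM in WT. Its interval, -1.34 to 1.06, allows a change of 2-fold in either direction.

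Several long genes are spread over many transcript entries. In unc-68 the entries moved far more than the gene sum, while in dys-1 and ttn-1 the gene sum moved as well. Of the 33 genes, 9 had 2 or more entries above 0. In 4 of these the leading entry was the same in all 4 libraries, and in 5 it changed. Of their 34 entries above 0, 13 were above 0 in all 4 libraries and 12 in 1 library only. These are the authors' estimates of how reads divide among overlapping isoforms, and entries at 0 are given only as listed.

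For dys-1 the high first mutant library came from 1 entry, listed at 222 FPKM there and at 0 in the other 3 libraries. Without that entry the gene stood at 37.5 and 43.2 FPKM in the mutant and at 36.2 and 41.2 FPKM in WT. With only the entries above 0 in all 4 libraries, the log2 fold change of dys-1 was 0.16 in place of 1.44. The 10 annotated transcripts of dys-1 range from 450 to 11243 nt, and which of them this entry is was not determined.

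For lev-11 the leading entry was listed at 742 and 744 FPKM in the mutant, at 735 FPKM in the first WT library and at 0 in the second WT library, where another entry stood at 247 FPKM. Another 2 lev-11 entries were above 0 in all 4 libraries. One stood at 535 and 484 FPKM in the mutant and at 488 and 519 FPKM in WT, with overlapping groups. The other stood at 257 and 213 FPKM in the mutant and at 300.3 and 322 FPKM in WT, so both mutant values were lower. For ttn-1 1 entry made up the whole listed level in 3 libraries, while in the second mutant library it stood at 1.63 FPKM and another at 8.98 FPKM. With only the entries above 0 in all 4 libraries, the log2 fold change of ttn-1 was -1.44 in place of -0.28. For unc-68 no entry was above 0 in all 4 libraries, although the gene sums lay between 14.9 and 20.3 FPKM.

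A pair of genes had an entry listed in the mutant libraries only. A second unc-22 entry stood at 5.02 and 5.68 FPKM in the mutant and at 0 in both WT libraries, while the leading entry stood at 23.7 and 22.8 FPKM in the mutant and at 21.4 and 28.5 FPKM in WT. One unc-89 entry stood at 3.11 and 8.59 FPKM in the mutant and at 0 in both WT libraries. Another unc-89 entry went the other way, at 3.02 and 0 FPKM in the mutant and 5.01 and 5.02 FPKM in WT. The 2 steady unc-89 entries, at 13.8 and 12.9 FPKM in the mutant and 12.7 and 13.7 FPKM in WT and at 10.5 and 9.03 FPKM in the mutant and 8.55 and 10.8 FPKM in WT, overlapped between genotypes. Both genes were singled out after their values were seen, and no test was run on single entries.

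**Figure D5:**
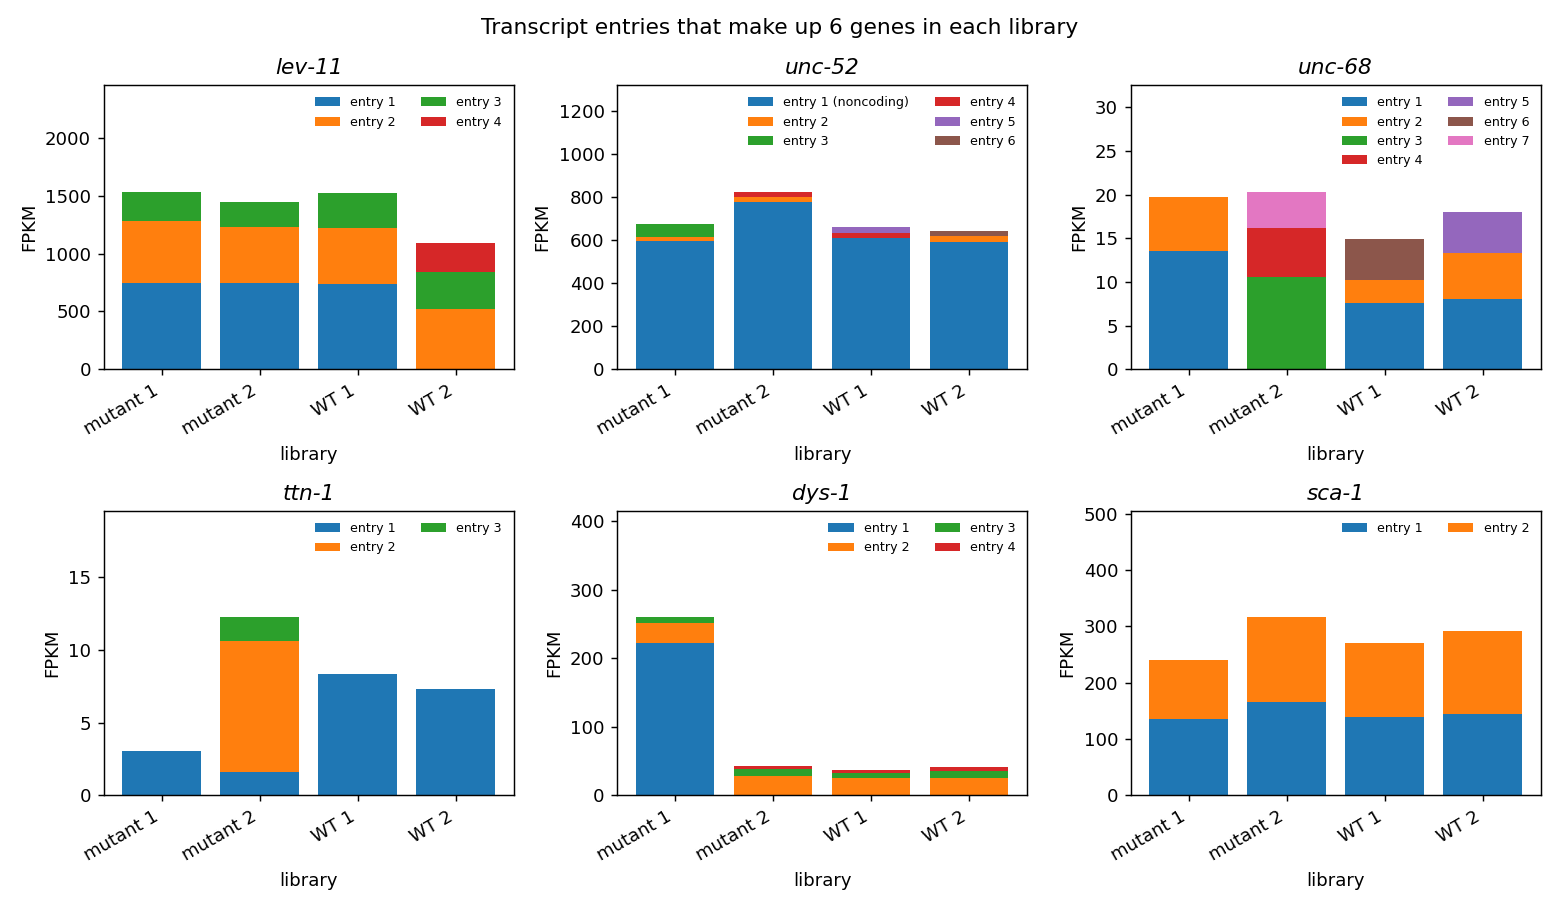
FPKM of each transcript entry above 0, stacked to the gene's sum, for lev-11, unc-52, unc-68, ttn-1, dys-1 and sca-1 in each library (dve-1 mutant at left, WT at right), with entries numbered by mean level. The colours change between libraries for unc-68 and ttn-1, a single entry of 222 FPKM makes the first mutant bar of dys-1, and the noncoding entry makes most of unc-52.

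Genes were also set side by side by the length of their longest annotated transcript. The 18 genes of at most 1600 nt had a median log2 fold change of 0.00, with both mutant values above both WT values in 4 and below in 5. The 6 genes of 1600 to 5000 nt had a median of 0.08, with 1 above and 1 below. The 9 genes over 5000 nt, unc-54 and myo-3 among them, had a median of 0.15, with 4 above and 0 below. Those 4 were unc-52, dys-1, unc-68 and unc-89. Genotypes overlapped for dys-1 without its entry listed in 1 library, for the coding entries of unc-52 and for the steady entries of unc-89. No unc-68 entry was above 0 in all 4 libraries. Over all tested genes the median was 0.095, with 28.1% above and 15.9% below. The limits were chosen after the values were seen, and no test was run. By position, 10 of the 35 genes lie on chromosome X and 9 on chromosome I.

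Of 55 other genes of worm muscle and its attachment, 47 were tested. By limma 0 were higher and 1 was lower in the mutant, against 0.303% and 1.36% of all tested genes. That gene was act-1, which encodes a muscle actin and belongs to a family of near-identical copies. It was listed at 0.131 and 0.177 FPKM in the mutant and at 1982 and 2126 FPKM in WT (limma adjusted p = 0.0031), and act-4 was listed at 0 in all 4 libraries. No value could be assigned to the actin genes act-2 and act-3. Reads that fit several actin genes may have been handled differently between libraries, so these levels are uncertain, and that was not tested. The median log2 fold change of the 47 genes was 0.12, and 17 had both mutant values above and 6 both below the WT values, against 28.1% and 15.9% of all tested genes. At an unadjusted limma p under 0.05 there were 3 of the 47, against 11.9% of all tested genes. The myosin chaperone hsp-90, the most abundant of them, stood at 1547 and 1498 FPKM in the mutant and at 1404 and 1236 FPKM in WT (limma adjusted p = 0.561).

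Markers of other tissues gave the setting of these values. Pharyngeal muscle has myosin heavy chains and some troponins of its own. Its 7 markers had a summed level of 2384 and 2087 FPKM in the mutant and 1729 and 2130 FPKM in WT. The most abundant of them, tni-4 and tnt-4, did not pass (limma adjusted p = 0.544 and 0.763). The 6 intestinal markers summed to 1021 and 1492 FPKM in the mutant and to 1984 and 1857 FPKM in WT, led by act-5 (573 and 978 FPKM in the mutant, 1167 and 1060 FPKM in WT) and by the metallothionein gene mtl-2, the 1 of the 6 that passed (284 and 271 FPKM in the mutant, 553 and 561 FPKM in WT, limma adjusted p = 0.0458). That call was lost with any 1 library left out (limma adjusted p 0.0953 to 0.157). The 6 epidermal markers summed to 88.5 and 105.8 FPKM in the mutant and to 129.7 and 144 FPKM in WT, and the cuticle collagen gene dpy-7 among them varied within genotypes, at 2.37 and 10.8 FPKM in the mutant and 23.1 and 0.232 FPKM in WT. Neuronal markers summed to 561 and 504 FPKM in the mutant and to 463.5 and 558 FPKM in WT, and germ line markers to 14.7 and 18.8 FPKM in the mutant and to 16.0 and 18.7 FPKM in WT. The part of tissue composition in the muscle values was not tested.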

How the data were processed

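Whole L1 larvae were sequenced as 4 bulk RNA libraries, 2 of dve-1(uf171) mutants and 2 of wild type, grouped and numbered by the sample titles. The deposited values are FPKM, 1 per RefSeq accession and library for 52491 accessions. The submitters' processing notes name TopHat2, Cufflinks and build ce11. Their versions, the strand setting and the handling of multiply aligned reads are not given in the sources consulted. Accessions, stripped of versions, were looked up in the RefSeq genes of WBcel235 (ce11), and the FPKM of each gene's accessions were added. Of the accessions, 47645 matched, and the 4846 without a match held 20.9% to 21.7% of summed FPKM. Lengths of transcripts and overlaps of exons were taken from Ensembl. Exons of 12 of the 35 genes overlap another gene.

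Counts and depths are not part of the table. Among transcripts under 0.3 FPKM, 365 of 1714 shared 1 ratio between the WT libraries (tolerance 0.0002), and at most 8 did between any other pair of libraries, so whole reads were not recovered and depth is unknown.

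The 15202 genes that averaged 1 FPKM or more over the 4 libraries were tested, among them all 33 muscle genes with values. The two-sided test was limma (version 3.58.1, R 4.3.3) on log2(FPKM + 1), its variance prior following the mean level, with Benjamini-Hochberg adjustment over all tested genes at 0.05. The pseudocount makes fold changes of low genes too small. The step was tested on simulated data, where it missed a part of the 2-fold changes put in. Same-numbered libraries are not paired by the labels. Every muscle gene is reported, and from the other lists the genes past the threshold or else the most abundant. The muscle genes and lists were chosen with earlier results of these data known. Alternatives were 2 other scalings, other pseudocounts, filters and limma settings, a replicate block, other ways to combine accessions and each library left out.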

Additional observations from a re-analysis of the deposited data

How the results depend on the processing

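None of the 33 genes passed limma under any of 17 alternatives, 2 of them added after seeing the data (smallest adjusted p 0.0653). Of 560 values, 522 kept their direction and 38 did not. The median of the 33 genes stayed within its replicate spread of 0.137 in each alternative. Under median-ratio scaling the log2 fold change was -0.028 for cpn-3, -0.101 for ketn-1, -0.047 for mlc-3, -0.102 for pat-10, -0.006 for pat-2, -0.035 for pat-3, -0.066 for pat-4, -0.023 for unc-112 and -0.054 for unc-87. Under quantile normalization it was -0.059 for ketn-1 and -0.019 for pat-4. With the highest accession per gene it was 0.06 for sca-1 and -0.087 for unc-22, and with accessions above 0 in all 4 libraries (added) -0.131 for lev-11 and -0.087 for unc-22, with no value for unc-68.

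Leaving out 1 library at a time gave log2 fold changes from -0.232 to 0.423 for cpn-3, -0.541 to 0.263 for hlh-1, -0.209 to 0.248 for ketn-1, -0.034 to 0.451 for lev-11, -0.108 to 0.259 for mlc-3, -0.106 to 0.062 for mup-2, -0.139 to 0.436 for myo-3, -0.016 to 0.058 for pat-10, -0.021 to 0.249 for pat-2, -0.03 to 0.203 for pat-3, -0.23 to 0.168 for sca-1, -0.309 to 0.004 for tnt-2, -1.137 to 0.586 for ttn-1, -0.074 to 0.271 for unc-112, -0.216 to 0.168 for unc-54 and -0.237 to 0.117 for unc-98. A genotype left with 1 library is assumed there to vary like the other.

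Over all genes, 252 passed limma, against 105 with a mean of at least 5 FPKM, 165 among protein-coding genes, 391 without the intensity trend and 49 with accessions above 0 in all 4 libraries. Leaving out 1 library gave 369 (first mutant library), 467 (second mutant library), 750 (first WT library) and 767 (second WT library), of which 332, 425, 107 and 89 were higher in the mutant. The cause was not tested. With the replicate number as a block, 0 genes passed limma, 0 of the other muscle genes among them, with 1166 genes at an unadjusted p under 0.05 and a limma adjusted p of 0.1002 for act-1. The deviations of same-numbered libraries had a correlation of r = -0.0562 over 15202 genes and of r = -0.229 over the 33 muscle genes. With 1 difference per genotype, this cannot show whether same-numbered libraries shared a culture or a batch. Depth is unknown, and with 2 libraries a genotype only the intervals limit the size of a change.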
